A study of Mus musculus with 17 samples.

Results

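The Dppa genes (developmental pluripotency associated) were followed in single mouse embryos at the 2-cell stage. Members were the table rows to which the platform annotation gives the symbol Dppa1, Dppa2, Dppa3, Dppa4 or Dppa5a, with every row of a gene kept apart. The rule found 8 rows of 5 genes among 28815 rows in all, of which 21780 carry exactly 1 symbol. Dppa2, Dppa3 and Dppa4 each had 2 rows (a row is 1 probe set of the array), and Dppa1 and Dppa5a had 1.

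All mice were wild type and of the inbred strain 129SVE (129S6/SvEvTac, Taconic); their ages were not given in the sources used here. Control sires received saline and the other sires received PJ34, which inhibits the enzymes PARP1 and PARP2 (makers of poly(ADP-ribose)), by daily injection over 6 weeks, and both groups were mated naturally with untreated females. The embryos themselves were never treated. There were 7 control embryos (1 from sire A, 3 from B, 3 from D) and 10 PJ34 embryos (4 from MTM11, 4 from MTM13, 2 from MTM14), each amplified and hybridized to its own array. The sample labels name saline for the control sires in one field and no treatment in another. Embryos of one sire are not independent, so that p-values over embryos measure the spread between these embryos of 3 sires per group.

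The family shares a name rather than a structure. Dppa2 and Dppa4 encode paired SAP domain proteins that bind DNA together, keep developmental promoters poised and help to switch on Dux and the genes typical of the 2-cell stage. Dppa3 (Stella, PGC7) is a maternal protein that shields DNA methylation of the maternal genome and restrains UHRF1. Dppa5a encodes a KH domain RNA-binding protein of oocytes, early embryos and embryonic stem cells, and Dppa1 is the least described of the set.

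Levels are log2 values of robust multichip average (RMA) signals. A limit for low signal was set at 6.25, the 95th percentile of the mean levels of 1035 rows of olfactory receptor genes, which a 2-cell embryo should hardly use. By this limit 10938 of the rows with 1 symbol (50.2%) lay above it. The 7 rows of Dppa2, Dppa3, Dppa4 and Dppa5a were among these, and the Dppa1 row was not. Array medians ran from 6.12 to 6.23 and the correlation between any pair of arrays from 0.94 to 0.96. Quantile normalization makes medians alike, so they do not show whether an array stood apart. Embryo MTM13-4 had the lowest mean correlation with the other arrays, 0.947. Its mean over 5 rows of 2-cell stage genes was also the lowest, 7.47, where the others ran from 8.37 to 9.88. None of the 11 rows of cumulus cell genes lay above the limit, and their mean level per embryo lay between 5.20 and 5.50 with PJ34 sires and between 5.29 and 5.47 with control sires. Maternal oocyte genes were above the limit in 10 of 11 rows. Of the other marker sets, 2 of 5 oviduct rows, 1 of 5 blood rows and 2 of 6 sperm rows lay above it. So did 5 of 5 rows of 2-cell stage genes and 4 of 6 rows of later lineage genes. Whether RNA of other cells was present was not tested.

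By their IDs, not all rows of one gene lie among rows of that gene's chromosome. For 96.7% of 2000 sampled rows, the commonest chromosome among the 10 nearest named rows by ID was that of the row's gene. Chromosomes came from the gene table of assembly GRCm38.p6, and order within a chromosome was not tested. Around Dppa2 row 10436053 and Dppa4 row 10436050, 9 of the 10 nearest named rows lay on chromosome 16, where both genes are. Around Dppa3 row 10541515, 8 of 10 lay on chromosome 6, the chromosome of Dppa3. Around Dppa2 row 10463138 all 10 lay on chromosome 19, around Dppa4 row 10486954 all 10 on chromosome 2, and around Dppa3 row 10604135 all 10 on chromosome X. The gene table lists a pseudogene, Dppa3-ps, on X, and the pseudogenes Dppa5b and Dppa5c on chromosome 9 with Dppa5a. Whether these second rows report the named gene, a near-identical copy or both is therefore uncertain. They are hereafter called the displaced rows, and those placed on the gene's own chromosome the home rows.

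**Figure D1:**
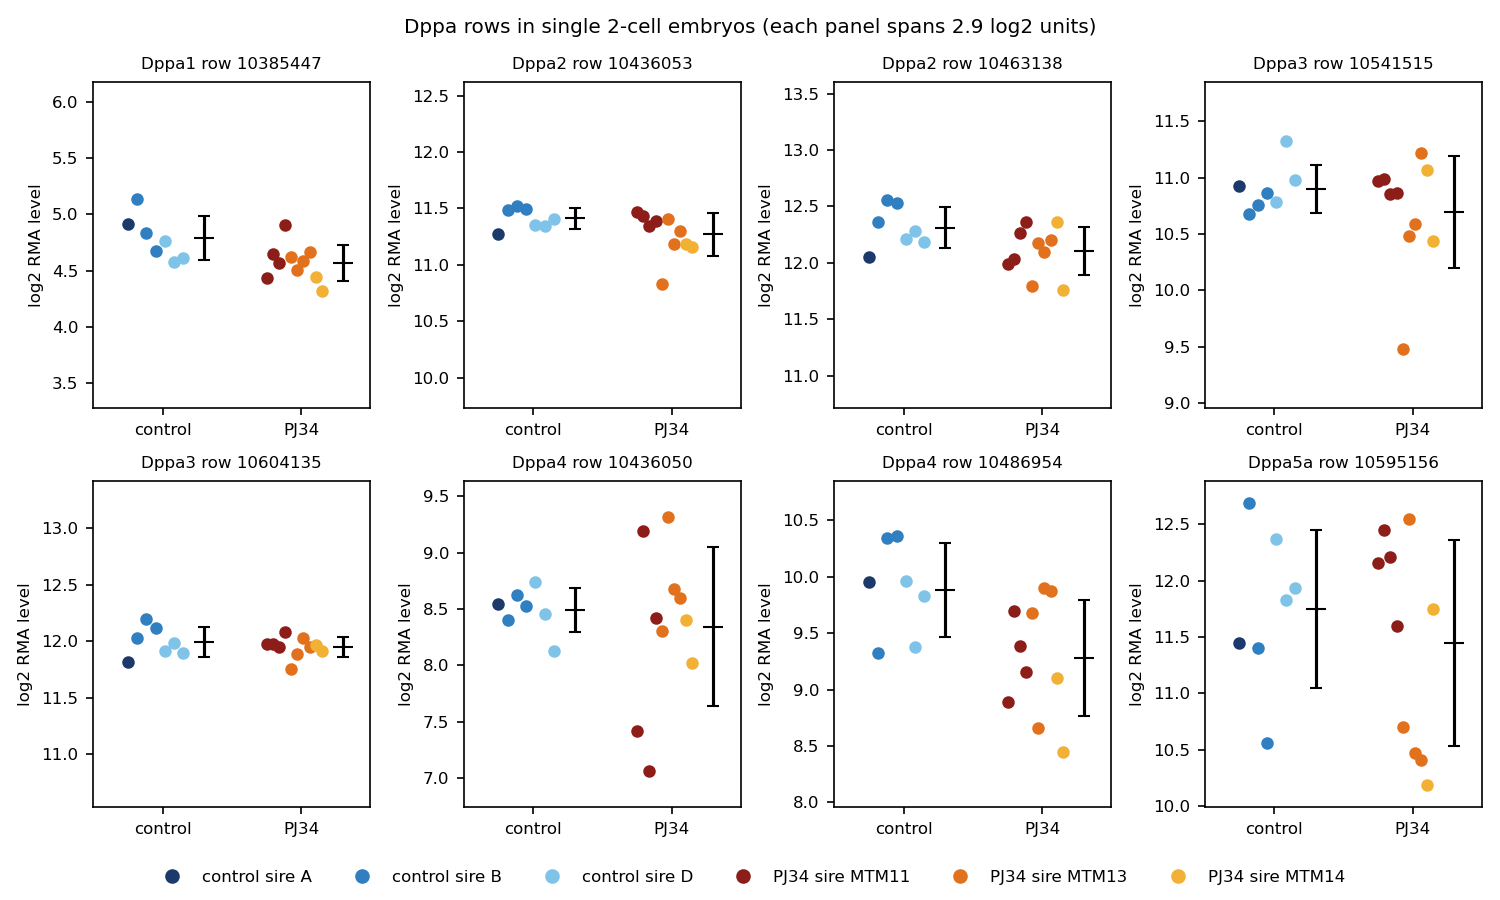
Log2 RMA level of each Dppa row (vertical axis, 2.9 log2 units in every panel) in the 7 control and 10 PJ34 embryos, 1 point per embryo coloured by sire, with the group mean and SD beside the points. Dppa4 row 10436050 is tightly grouped in controls (8.13 to 8.74) and runs from 7.06 to 9.32 in PJ34 embryos, while Dppa5a is scattered in both groups.

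Dppa2, the partner of Dppa4 in the DNA-binding pair, had high signal and little scatter. In home row 10436053 the controls had a lowest level of 11.27, a median of 11.41 and a highest of 11.53. The PJ34 embryos had 10.83, 11.32 and 11.47. The groups overlapped, with 4 of 10 PJ34 embryos below every control. The lowest value belonged to embryo MTM13-1, and its nearest neighbour was MTM14-2 at 11.16. The difference of means (PJ34 minus control) was -0.14 log2 (95% interval -0.31 to 0.02, limma adjusted p = 0.867). Without MTM13-1 the difference was -0.09, a move of over 1.5 times.

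In the displaced Dppa2 row 10463138 the controls ran from 12.06 through a median of 12.28 to 12.56. The PJ34 embryos ran from 11.76 through 12.14 to 12.36. Again 4 PJ34 embryos lay below every control, and the groups overlapped. The difference was -0.21 log2 (95% interval -0.42 to -0.0015, adjusted p = 0.843 by limma).

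Dppa4 had the member row with the largest difference in group means and, by the overall SD, the row with the largest ratio of spreads, and these were different rows. In home row 10436050 the controls ran from 8.13 through 8.53 to 8.74. The PJ34 embryos ran from 7.06 through 8.41 to 9.32, reaching beyond the controls on both sides. Embryos MTM11-1 (7.42), MTM11-3 (7.06) and MTM14-2 (8.02) lay below every control, whereas MTM11-2 (9.19) and MTM13-2 (9.32) lay above every control. Siblings of one sire, MTM11, thus held 2 of the low values and 1 of the high ones. The means differed by only -0.15 log2 (95% interval -0.70 to 0.41, limma adjusted p = 0.955). Single embryos moved this value by over 1.5 times: it was -0.01 without MTM11-3, -0.05 without MTM11-1, -0.24 without MTM11-2 and -0.26 without MTM13-2.

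In the displaced Dppa4 row 10486954 the controls ran from 9.32 through 9.96 to 10.37. The PJ34 embryos ran from 8.44 through 9.27 to 9.90. Of the 10 PJ34 embryos, 9 lay below the control mean and 5 below every control. The mean level was 9.88 ± 0.42 (SD, n = 7) in controls and 9.28 ± 0.51 (SD, n = 10) in PJ34 embryos. The difference of -0.60 log2 (95% interval -1.07 to -0.13), a 1.52-fold lower mean signal, had an unadjusted limma p of 0.0157 and an adjusted p of 0.843. Leaving out each embryo in turn gave differences from -0.69 to -0.51.

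Dppa3, the maternal protector of DNA methylation, had a home row in which 1 embryo lay far below the rest. In row 10541515 the controls ran from 10.68 through 10.87 to 11.32. The PJ34 embryos ran from 9.48 through 10.86 to 11.22, so the medians nearly coincided. Embryo MTM13-1 held the lowest level, and the next lowest was MTM14-2 at 10.44. The difference was -0.21 log2 (95% interval -0.61 to 0.20, adjusted p = 0.920 by limma), and it was -0.07 without MTM13-1 and -0.14 without control D-2.

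The displaced Dppa3 row 10604135 was the steadiest of the members. Controls ran from 11.81 through 11.98 to 12.20 and PJ34 embryos from 11.75 through 11.96 to 12.08. Its SD within groups, 0.11, was larger than that of only 4.15% of the rows above the low-signal limit. The difference was -0.05 log2 (95% interval -0.17 to 0.08, limma adjusted p = 0.941). It was -0.08 without control A-2, -0.01 without B-2, -0.02 without B-3 and -0.02 without MTM13-1.

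Dppa5a, the KH domain member, was the most variable. Controls ran from 10.56 through 11.83 to 12.69, and PJ34 embryos from 10.19 through 11.67 to 12.54. Over all 17 embryos the highest level was 5.64-fold the lowest. The SD within groups of 0.84 exceeded that of 91.3% of rows above the low-signal limit, whose median SD was 0.31. Low values occurred in both groups, in control B-3 and in PJ34 embryos MTM13-1, MTM13-3, MTM13-4 and MTM14-1. The difference was -0.30 log2 (95% interval -1.12 to 0.52, adjusted p = 0.942 by limma). It was -0.50 without control B-3, and it shrank to between -0.20 and -0.14 without B-1, D-1, MTM13-3, MTM13-4 or MTM14-1.

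Dppa1 had a mean level of 4.66, below the low-signal limit. Controls ran from 4.58 through 4.77 to 5.14 and PJ34 embryos from 4.32 through 4.58 to 4.90. The difference was -0.22 log2 (95% interval -0.40 to -0.04, unadjusted p = 0.0211, limma adjusted p = 0.843).

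**Figure D2:**
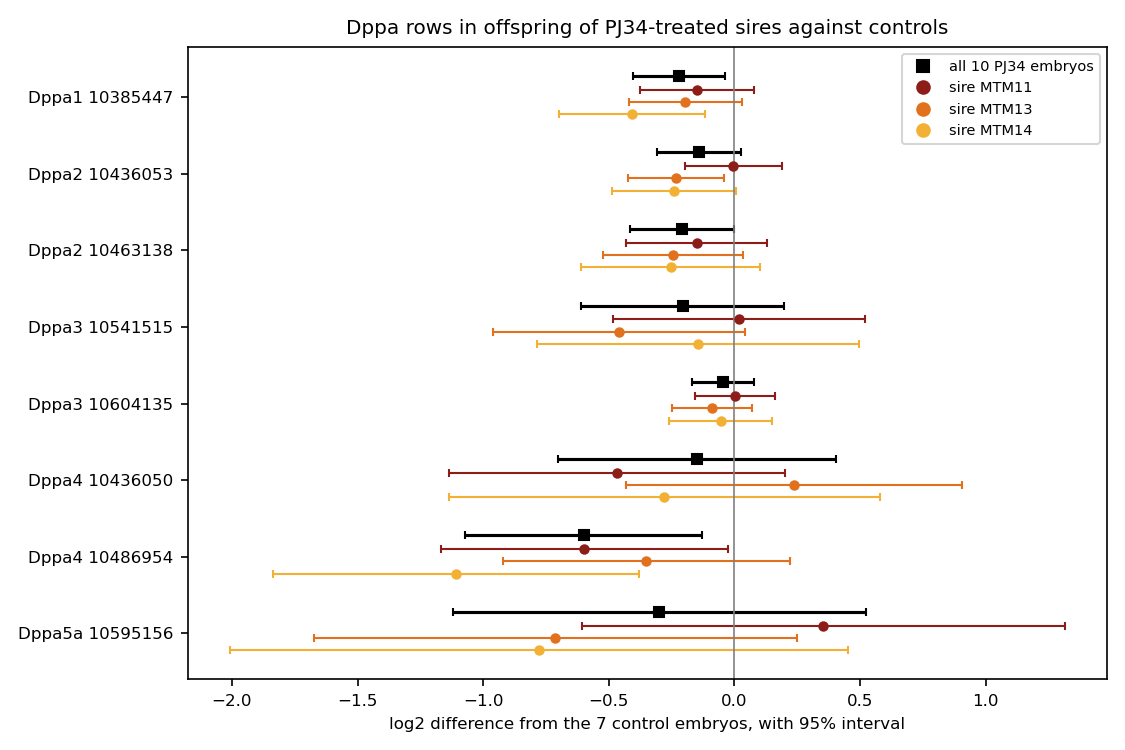
Difference in mean log2 level from the 7 control embryos (horizontal axis) for each Dppa row, for all 10 PJ34 embryos (black squares) and for the embryos of each PJ34 sire (coloured circles), with 95% intervals from limma. All 8 black squares lie left of 0, and those of Dppa1, Dppa2 row 10463138 and Dppa4 row 10486954 have intervals that end below 0 without adjustment.

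Over the family, 0 of 8 rows passed the adjusted threshold of 0.1, against 0% of all rows, so neither the members nor any other row was called by limma. At an unadjusted p under 0.05, 3 of 8 rows were lower in PJ34 embryos (Dppa1, displaced Dppa2 and displaced Dppa4) and 0 were higher. Over all rows tested 3.93% were lower and 1.96% higher by the same measure. The estimated difference was negative in 8 of 8 rows, with a median of -0.21 log2, beside 56.4% of all rows and a median of -0.02. Rows of one gene and rows correlated across embryos are not separate evidence of direction. Exact permutation tests over the 19448 divisions of the embryos gave two-sided p of 0.0213 for Dppa1, 0.0545 for displaced Dppa2 and 0.0235 for displaced Dppa4. Without control sire B, none of these 3 rows kept an unadjusted limma p under 0.05. The differences were then -0.15 log2 for Dppa1 (p = 0.140), -0.08 for displaced Dppa2 (p = 0.484) and -0.50 for displaced Dppa4 (p = 0.0740).

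By sire, 0 of 24 comparisons of a PJ34 family with the 7 controls passed the adjusted threshold by limma, where 0.00459% of all rows did for MTM11, 0% for MTM13 and 0.0551% for MTM14. At an unadjusted p under 0.05, beside the share of all rows lower in the same family, the displaced Dppa4 row was lower in the MTM11 embryos by -0.60 log2 (2.53% of all rows) and in the MTM14 embryos by -1.11 log2 (3% of all rows). The MTM14 value had a 95% interval of -1.84 to -0.38 and an adjusted p of 0.620, and it rests on 2 embryos. In the MTM13 embryos the same row differed by -0.35 log2, with an interval of -0.92 to 0.22. Home Dppa2 differed by -0.23 log2 in MTM13 embryos (unadjusted p = 0.0214 in limma, 2.9% of all rows), and Dppa1 by -0.41 log2 in MTM14 embryos (unadjusted p = 0.0090). These sizes depended on the control sire. Against sire D alone, displaced Dppa4 differed by -0.44 log2 in MTM11 and -0.95 in MTM14 embryos. Home Dppa2 in MTM13 then differed by -0.19 and Dppa1 in MTM14 by -0.27. Against sire B alone the same values, in that order, were -0.73, -1.24, -0.32 and -0.50 log2. The estimates for Dppa5a were 0.35 log2 for MTM11, -0.71 for MTM13 and -0.78 for MTM14, with intervals that all include 0. A moderated F test between the 3 PJ34 sires called 0 of 8 rows (0.0138% of all rows), with the lowest unadjusted p, 0.0759, for home Dppa2.

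Each PJ34 embryo was also set alone against the 7 controls, as the study did, in a limma fit whose spread came from the controls. Of 80 comparisons of a member row with a PJ34 embryo, 3 passed the adjusted threshold, all of them lower and all in home rows. Over all rows and the same 10 embryos, 0.101% of comparisons were called lower and 0.48% higher, so calls ran mostly the other way. An unadjusted p under 0.05 was found in 14 of the 80 member comparisons and in 6.21% of those over all rows. Home Dppa4 differed by -1.07 log2 from the control mean in MTM11-1 (adjusted p = 0.0885, where 0.129% of all rows were called lower). In MTM11-3 the difference was -1.43 log2 (adjusted p = 0.0330, 0.0689% of rows). Home Dppa3 differed by -1.42 log2 in MTM13-1 (adjusted p = 0.0357, 0.142% of rows). Among 56 comparisons of a control embryo with the other 6 controls, 0 member rows passed the limma threshold, where 0.04% of comparisons over all rows were called lower and 0.357% higher. In those controls an unadjusted p under 0.05 was found in 4 of 56 member comparisons and in 5.7% over all rows. The designs are not alike. A control from sire B or D was set against a reference that held its own siblings, and a PJ34 embryo was not. When the spread of all groups was used in place of that of the controls, 0 of these 3 calls passed, but that fit called 0 of all rows in 9 embryos and 1 in MTM14-1. With arrays centred on their medians the call of home Dppa4 in MTM11-1 did not pass while home Dppa2 was called in MTM13-1.

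**Figure D3:**
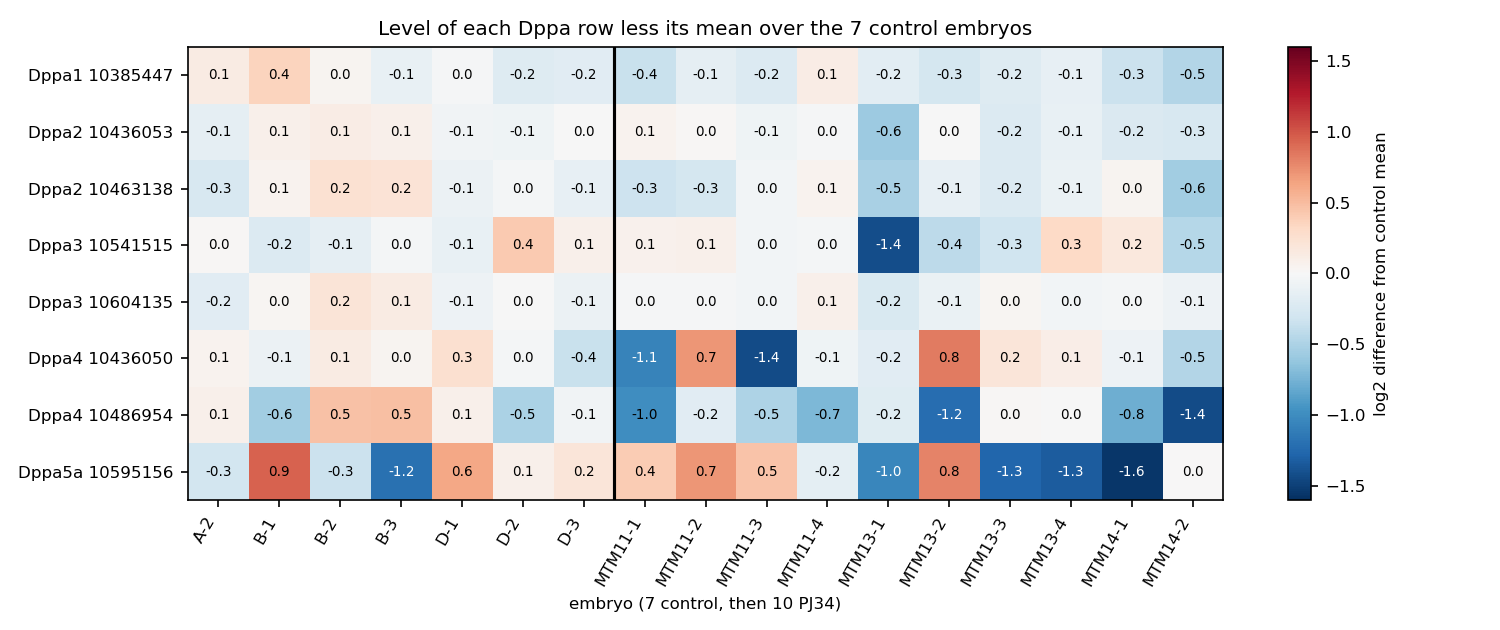
Level of each Dppa row in each embryo less the mean of that row over the 7 controls, in log2 units (red above, blue below), with controls left of the line. MTM13-1 is low in Dppa2, home Dppa3 and Dppa5a together, whereas MTM11-1 and MTM11-3 are below the control mean in both Dppa4 rows with home Dppa2 and Dppa3 near the control mean.

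MTM13-1 was the lowest of all 17 embryos in 3 of the 8 rows, home Dppa2 and both Dppa3 rows, and MTM14-2 in another 3, Dppa1 and the displaced rows of Dppa2 and Dppa4. The array of MTM13-1 had a median of 6.15, inside the range of the rest, which quantile normalization makes alike. Its mean correlation with the other arrays, 0.950, was lower than that of every embryo except MTM13-4 (0.947). The 200 rows called singly in MTM13-1 were the most of any PJ34 embryo, where MTM11-2 had the fewest, 63. The part of this in the Dppa values of MTM13-1 was not tested.

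The spread between PJ34 embryos was compared with that between controls because sperm of a treated male need not all be affected alike. For home Dppa4 the SD was 0.19 over the 7 controls and 0.70 over the 10 PJ34 embryos, a ratio of 3.65 (exact permutation p = 0.0427, two-sided). That p was no longer under 0.05 when any 1 of 10 embryos was left out (A-2, B-1, B-2, B-3, D-2, MTM11-1, MTM11-2, MTM11-3, MTM13-2 or MTM14-2), and reached 0.0890 without MTM11-1. The ratio ran from 2.98 without MTM11-3 to 5.85 without control D-3. In a limma fit of the absolute deviations over all rows the same row had an unadjusted p of 0.0412 and an adjusted p of 0.557. It was the only member row of 8 with an unadjusted p under 0.05 there. Over all rows 8.69% had such a p in either direction, and 3.73% were wider in PJ34 embryos by that measure. At the adjusted threshold that fit called 6 of all rows, of which 0 were wider in PJ34 embryos. Home Dppa3 had SDs of 0.50 and 0.21, a ratio of 2.34 (exact permutation p = 0.228), and home Dppa2 0.19 and 0.10, a ratio of 1.99 (exact permutation p = 0.258). Without MTM13-1 the ratio was 1.28 for home Dppa3 and 1.22 for home Dppa2, and without control D-2 it was 4.41 for home Dppa3 (exact permutation p = 0.0049). Dppa5a, with SDs of 0.92 and 0.70, varied widely in both groups (exact permutation p = 0.255, and 0.0358 without control B-3). The 3 displaced rows had ratios from 0.65 to 1.23, and that of displaced Dppa3, the 0.65, was 0.43 without MTM13-1. Taken around sire means, the order changed: the log2 ratio was 2.54 for home Dppa2 and 1.61 for home Dppa4. Around sire means displaced Dppa2 was wider in PJ34 embryos by 1.52 on the log2 scale, and its 2 MTM14 embryos lay at 12.36 and 11.76. No p-value is given for the ratios around sire means. Control A-2 was the only embryo of its sire, so its deviation vanishes by construction and such values cannot be exchanged freely between groups.

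**Figure D4:**
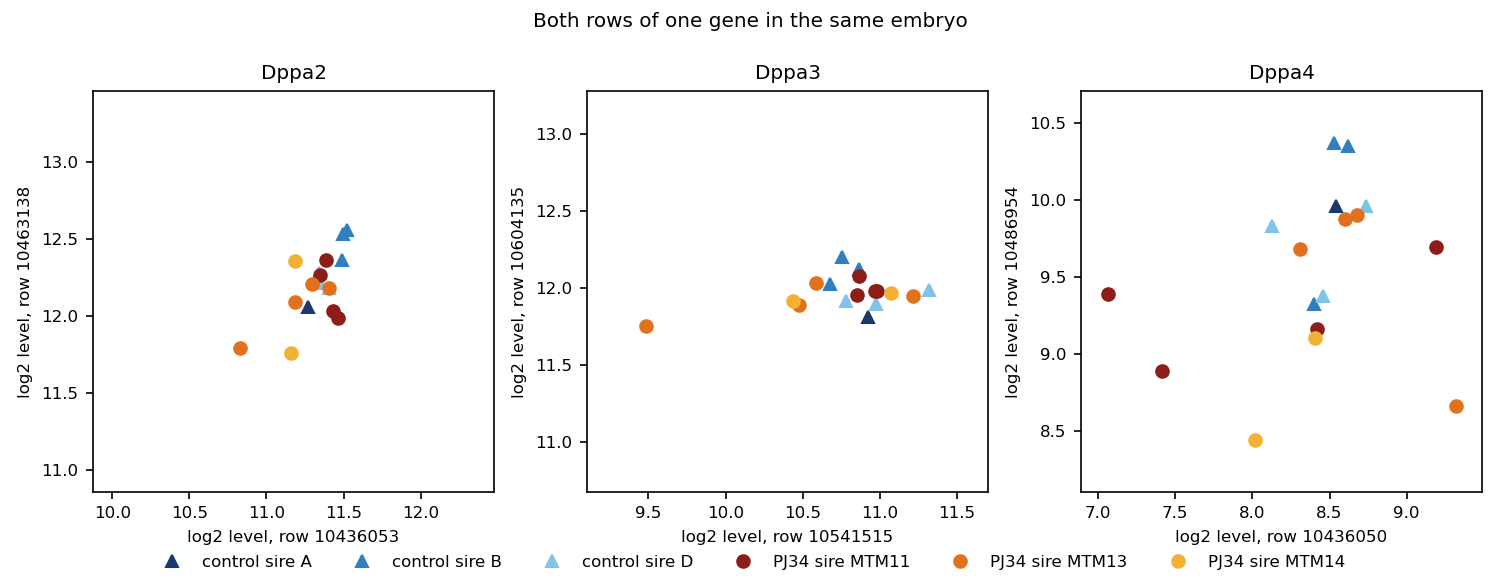
Level of the displaced row (vertical axis) against that of the home row (horizontal axis) of Dppa2, Dppa3 and Dppa4 in the same embryo, log2 RMA units, triangles for controls and circles for PJ34 embryos, coloured by sire. The Dppa2 rows move together, the Dppa3 rows are joined mainly by MTM13-1 at the lower left, and the Dppa4 rows are scattered.

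The rows of one gene agreed to different degrees across the 17 embryos. The Dppa2 rows had a Pearson r of 0.65 (permutation p = 0.0043, adjusted over 28 pairs of rows p = 0.0399) and a Spearman rho of 0.51 (permutation p = 0.0388). Without MTM13-1 and MTM14-2, the embryos farthest from the median, r was 0.34, so that the relation rests partly on them. On levels centred within sire, r was 0.43. The Dppa3 rows had r = 0.41 (permutation p = 0.114), and r = -0.04 without MTM13-1 and D-2. The Dppa4 rows had r = 0.23 (permutation p = 0.372), rho = 0.42 (permutation p = 0.0907), and r = 0.07 without MTM11-3 and MTM11-1. Embryo MTM13-2 shows the disagreement of the Dppa4 rows: it had the highest home level of all, 9.32, and a displaced level of 8.66, above that of MTM14-2 only. The gap between the Dppa4 rows (home minus displaced) ran from -1.84 to -0.92 in controls and from -2.33 to 0.66 in PJ34 embryos. Its mean was higher by 0.45 in PJ34 embryos, which did not pass an exact permutation test (p = 0.191). It was higher by 0.28 without MTM13-2 (exact permutation p = 0.308) and by 0.61 without MTM11-3 (exact permutation p = 0.0419).

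**Figure D5:**
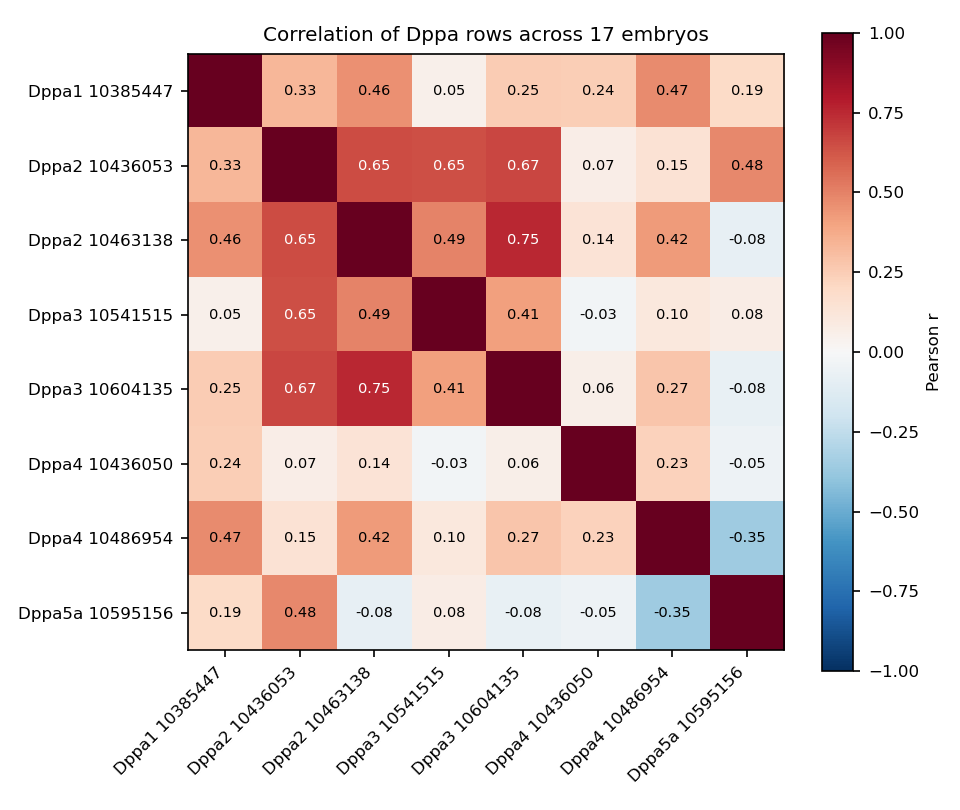
Pearson r between each pair of Dppa rows over the 17 embryos (colour from -1 to 1, value in each cell). The 4 rows of Dppa2 and Dppa3 have values from 0.41 to 0.75 among themselves, and those of home Dppa4 with any other row run from -0.05 to 0.24.

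Between genes, the displaced rows of Dppa2 and Dppa3 were the most alike of the 28 pairs. Their r was 0.75 (permutation p = 0.0006, adjusted p = 0.0176), rho was 0.67 (permutation p = 0.0045), and r was 0.71 without MTM14-2 and MTM13-1. It was 0.99 in the 7 controls alone and 0.61 in the 10 PJ34 embryos alone. In controls the sire means rose together from A through D to B. They were 12.06, 12.23 and 12.48 in displaced Dppa2 and 11.81, 11.93 and 12.11 in displaced Dppa3. On levels centred within sire, r over all embryos was 0.61. Home Dppa2 and displaced Dppa3 had r = 0.67 (permutation p = 0.0040, adjusted p = 0.0399), and 0.47 without MTM13-1 and MTM14-2 (adjusted permutation p = 0.536). With arrays centred on their medians it was 0.60 (adjusted permutation p = 0.1001), and on levels centred within sire 0.48. Both home rows of Dppa2 and Dppa3 had r = 0.65 (permutation p = 0.0237, adjusted p = 0.166), but rho was 0.12 and r was -0.19 without the same 2 embryos, so that relation rests on them. Dppa2 and Dppa4, whose proteins act as a pair, had home rows with r = 0.07 (permutation p = 0.779). Their displaced rows had r = 0.42 (permutation p = 0.0913, adjusted p = 0.284), and 0.31 without MTM14-2 and MTM13-1. Home Dppa2 with displaced Dppa4 had r = 0.15, and displaced Dppa2 with home Dppa4 r = 0.14.

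Outside the family, the rows most like each member were found by Pearson r on levels centred within group, over 17 embryos and 10931 rows above the low-signal limit. For displaced Dppa2 the nearest was Srsf5 (r = 0.89), for displaced Dppa3 Lingo4 (0.87), for home Dppa4 Jcad (0.84) and for home Dppa3 Arl14ep (0.83). For home Dppa2 it was Atl3 (0.80), for displaced Dppa4 Raph1 (0.75) and for Dppa5a Lsm7 (0.74). These are the highest of many values and are given as a description.

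Genes of the same pathways were taken from 5 lists, and 0 of their rows passed the adjusted threshold by limma. The counts at an unadjusted p under 0.05 stand against 1.96% of all rows higher and 3.93% lower. Of 17 rows of regulators and partners of Dppa2 and Dppa4, 2 were higher in PJ34 embryos and 2 were lower, each at an unadjusted p under 0.05, with a median difference of -0.09 log2. The higher rows were of the histone demethylase Kdm1a (0.50 log2) and the histone methyltransferase Kmt2b (0.34 log2). The lower rows were of the chromatin remodeller Smarca5 (-0.21 log2) and 1 of several rows of Sumo2 (-0.12 log2), a modifier protein. The other Sumo2 rows differed by -0.11 to -0.09 log2 (unadjusted limma p from 0.0665 to 0.138). The list median is the value of 1 of them, so this gene weighs heavily in it. Of 13 rows of 2-cell genes downstream of Dppa2 and Dppa4, 0 were higher and 2 lower, with a median of 0.00. These were Usp17lb at -1.11 log2 (unadjusted p = 0.0304) and Usp17lc at -0.48 log2, of a family of deubiquitinase genes. The other family members in the list, Usp17ld (0.25 log2) and Usp17la (0.11 log2), had estimates of the opposite sign. The list is a partial one, since 15 of its 26 symbols, Duxf3 and the Zscan4 genes included, had no row with 1 symbol.

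Of 23 rows of genes tied to Dppa3 and DNA methylation, 2 were higher and 2 lower, with a median of 0.03 log2. Of 3 rows of Tet1, a DNA demethylation enzyme, 1 differed by -1.26 log2 (unadjusted p = 0.0165) and the others by -0.14 and 0.26 log2 (unadjusted p = 0.518 and 0.457), so the rows of that gene disagreed. Gadd45a differed by -0.34 log2. Uhrf1, which the Dppa3 protein restrains, differed by 0.34 log2 (unadjusted p = 0.0495), and Tet2, below the low-signal limit, by 0.14 log2. Of 8 rows of KH domain relatives of Dppa5a and the subcortical maternal complex, Zbed3 was higher by 0.13 log2 and Khdc3 lower, at -0.72 log2 (unadjusted p = 0.0025, adjusted p = 0.814). Of 24 rows of pluripotency and germ cell genes, 0 were higher and 1 lower, Fbxo15 at -0.17 log2. The median of each list lay within 0.1 of that of all rows, -0.02. Sumo2 and Uhrf1 were named after their values were seen, to complete these counts.

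Among genes beside the members on their chromosomes, 0 passed the adjusted threshold. Nanog and Gdf3, which lie near Dppa3, differed by 0.08 and -0.09 log2, and Morc1, near Dppa2 and Dppa4, by -0.10. Ooep, next to Dppa5a and a member of the subcortical maternal complex, differed by 0.42 log2 with an interval of -0.34 to 1.17. Ddx43, on the same side of Dppa5a, differed by 0.81 log2 (95% interval 0.06 to 1.56, limma adjusted p = 0.843). Timd2, beside Dppa1, differed by -0.42 log2 (95% interval -0.83 to 0.0005, limma adjusted p = 0.843). Remaining neighbours are not named here. The sets of marker genes (cumulus, oviduct, blood, sperm, maternal, 2-cell and later lineage) gave 56 correlations with the member rows, none with an adjusted p under 0.1 in a permutation test (lowest 0.255).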

How the data were processed

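RNA of single embryos was isolated, amplified (WT-Ovation One-Direct kit) and put on Affymetrix Mouse Gene 1.0 ST arrays, 1 per embryo. The authors deposited log2 values made by RMA (background correction, quantile normalization, summarization of probes) in Partek, per the labels and methods. For the software versions and the build of the rows: not given in the sources used here. Values were used as deposited. For arrays the number of embryos limits the precision, with a median standard error of 0.09 log2.

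Rows were named through GEO's platform annotation, with symbols updated from the gene table of GRCm38.p6 (21689 of 21780 rows with 1 symbol matched). Another 1605 rows had several symbols and 5430 none, and these entered only as an alternative. Groups and sires came from the labels. Differences were tested with limma 3.58.1 in R 4.3.3 over all rows with 1 symbol, two-sided, with Benjamini-Hochberg adjustment and the study's threshold of 0.1. Families entered 1 fit of 4 groups. Single rows and SD ratios, except those around sire means, were tested by exact permutation, and correlations by permutation with 100000 resamples. Figures used Python 3.11.15 and matplotlib 3.10.9.

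All rows of the members were named, with up to 3 genes of smallest p per list, and Sumo2, Uhrf1 and Usp17la beyond these. The rule took the 2 nearest neighbours on each side and the 3 most similar rows. Of these, only some neighbours and the most similar row of each member row above the low-signal limit are named here. Members, lists and rules were chosen with earlier results of these data known. The test was checked on simulated data. Alternatives covered sires, scaling, filters, tools and left-out embryos. The deviation fit, the row gaps and the marker correlations were added after the data were seen.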

Additional observations from a re-analysis of the deposited data

Results flagged for a closer look

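In 32 combinations of a member row with a group or family of 4 to 10 embryos, 3 extreme embryos stood apart from the others by Dixon's test at the 95% level, where chance alone flags about 1 in 20 groups. Embryo MTM13-1 was the lowest of the PJ34 embryos in home Dppa2 row 10436053, at 10.83. The same embryo was the lowest in home Dppa3 row 10541515, at 9.48. For Dppa5a, embryo MTM13-2 was the highest of its family of 4, at 12.54, while its siblings lay between 10.41 and 10.70.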

How the results depend on the processing

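Each member row was tested under 33 alternatives (32 for Dppa1), of which 32 (31) gave an adjusted p, and 0 of the 8 rows passed the adjusted threshold under any of those. The estimate kept its sign in 6 of 8 rows, and turned to 0.046 for displaced Dppa3 without sire B and to 0.065 for home Dppa4 without sire MTM11. Rows called among all rows numbered 0 in the reported comparison, 2 with the sire as a random block (estimated correlation -0.038) but 0 on sire means, 2 among rows above the low-signal limit, 1 with array weights, 2 without sire A, 1 without sire MTM14, and 0 to 2 when embryos were left out in turn (2 without A-2). Family estimates near 0 turned sign. For MTM11 these were home Dppa2 (0.041) and home Dppa3 (-0.11) against control sire D alone, and displaced Dppa3 against sire B alone (-0.12) or with arrays centred on their medians (-0.00128). For MTM14 displaced Dppa3 was 0.00753 against sire D alone. The log2 ratio of SDs taken around sire means became 2.54 for home Dppa2, 1.52 for displaced Dppa2 and 0.32 for displaced Dppa3, and was 1.61 for home Dppa4. By median absolute deviation the log2 ratio of home Dppa4 was 1.85 (exact permutation p = 0.146). Leaving out embryos gave ratios from -0.76 to 0.28 for Dppa1, -1.22 to -0.31 for displaced Dppa3, 0.35 to 2.14 for home Dppa3, 1.58 to 2.55 for home Dppa4 and 0.26 to 0.85 for Dppa5a. The correlation of the Dppa2 rows was 0.60 with arrays centred, 0.56 centred within group and 0.34 without 2 embryos, no longer passing the adjusted threshold. That of home Dppa2 with displaced Dppa3 also did not pass with arrays centred or without 2 embryos, and that of the Dppa3 rows was -0.035 without 2. With arrays centred, single-embryo calls were home Dppa2 and home Dppa3 in MTM13-1 and home Dppa4 in MTM11-3 only. The cause of these changes was not tested. No paired analysis was possible because embryo numbers are nested in sires and no sire belongs to both groups.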
